A study of Mus musculus with 18 samples.

Results

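The genes described here are 37 mouse interferon-stimulated genes, taken from a fixed list of symbols and read in neutrophils from 6 tissues. All 37 were among the 32328 genes of the deposited table. All 37 also had a level of at least 1 in at least 3 libraries, as did 16157 genes in all, and only those genes were tested. The list was drawn up by name and not by measured values, although earlier results of these data were known when it was chosen.

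The study asked how the RNA of neutrophils differs between tissues, using adult mice of strain C57BL/6 that were 8 to 12 weeks old. Neutrophils were sorted for CD45, CD11b and Ly6G, with DAPI as the viability dye, at purities that the labels put above 95% as a rule. There were 3 libraries for each of 6 tissues, namely Blood, bone marrow (BM), Spleen, Lung, Skin and Intestine. Skin was taken from the ear and Intestine from the colon, and the labels name no treatment or transgene. Nothing in the labels says whether libraries of a tissue came from separate mice, so the p-values measure the spread between libraries.

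Type I interferons bind a receptor of IFNAR1 and IFNAR2 chains, whose kinases phosphorylate STAT2 and other factors. STAT2 joins IRF9 in a complex that binds interferon-stimulated response elements, short repeats of GAAA, in front of the genes it induces. The products sense viral nucleic acid, block its translation or degrade it, and several feed back on the pathway. Many of these genes also answer to type II or type III interferon, so their RNA does not name the interferon. In mice, single-cell studies have described a subset of blood neutrophils with raised interferon-stimulated genes.

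The response element can be read in front of several of the genes the results turn on. Windows from the RefSeq promoters of build GRCm38.p6 are shown 5′ to 3′ on the gene's own strand, with matches in capitals. The motif searched was GAAA, then NN for any pair of bases, then GAAA again, and on the other strand TTTC, NN and TTTC. Overlapping matches run together as 1 block. The sets were chosen to show the ubiquitin-like Isg15, the IFIT and OAS genes with their near copies, Rsad2 as an antiviral effector, and Bst2, which went the other way in Intestine. Only genes with a match before the start are shown.
Isg15, chr4:156200857-156200916, minus strand: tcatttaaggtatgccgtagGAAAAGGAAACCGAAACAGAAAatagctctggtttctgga
Ifit1, chr19:34640765-34640824, plus strand: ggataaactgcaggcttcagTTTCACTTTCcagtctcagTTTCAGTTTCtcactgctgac
Ifit3, chr19:34583353-34583421, plus strand: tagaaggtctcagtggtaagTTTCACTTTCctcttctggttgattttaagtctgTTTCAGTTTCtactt
Ifit3b, chr19:34607749-34607817, plus strand: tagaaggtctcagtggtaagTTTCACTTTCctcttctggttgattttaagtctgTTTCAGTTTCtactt
Oas1a, chr5:120907526-120907585, minus strand: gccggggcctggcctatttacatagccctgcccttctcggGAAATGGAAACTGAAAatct
Oas1g, chr5:120887614-120887673, minus strand: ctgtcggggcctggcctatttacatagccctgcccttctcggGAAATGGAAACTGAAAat
Oas3, chr5:120777695-120777754, minus strand: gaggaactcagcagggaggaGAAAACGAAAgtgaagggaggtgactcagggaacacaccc
Rsad2, chr12:26456533-26456592, minus strand: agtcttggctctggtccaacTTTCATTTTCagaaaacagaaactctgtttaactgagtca
Bst2, chr8:71537563-71537622, minus strand: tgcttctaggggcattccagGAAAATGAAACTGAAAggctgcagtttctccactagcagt

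Isg15 held 3 overlapping matches, the first starting 78 bases before the RefSeq start of the gene. Oas1a and Oas1g each held a pair that overlap, 20 and 18 bases before the start, in windows that read almost letter for letter the same. The windows of Ifit3 and Ifit3b were identical over 69 bases. Promoter entries of 300 bases, 250 before the start to 50 after it, were at hand for 27 of the 37 genes. The motif on either strand was in 14 of these 27 (51.9%) and in 3.99% of the 27025 genes with an entry. Counting only matches before the start, it was in 11 of the 27 (40.7%) and in 3.46% of all. For 3 of the 11, Stat2, Ifit3b and Bst2, the bases after the RefSeq start were not found in a GENCODE transcript of the gene, so the place of the motif relative to the start is less sure. No match was found in the entries of Oasl2 and Dtx3l, which were higher in Blood below. Nor was one found for Irf7, Irf9, Oasl1, Ifit2, Herc6, Cmpk2, Isg20, Samd9l, Ifi44, Ifi35 and Xaf1. Zbp1, Rtp4 and Ifi27l2a, also higher in Blood, were among the genes without an entry. A match is a description of letters and not a bound site.

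Some of these genes share reads or overlap, which bears on single values. Of all stretches of the read length, 61 bases, in Oas1a transcripts, 52.5% also occur in Oas1g, and 46.6% of those in Ifit3 also occur in Ifit3b. Smaller shares were found for Herc6 (12.0%), Rtp4 (11.1%), Ifit1 (6.24%) and Trim30a (5.46%). Parp9 and Dtx3l lie on opposite strands of chromosome 16 and overlap, with 7.23% of the Parp9 stretches also in Dtx3l read backwards. Use of strand in counting is not given in the sources used here. Levels split within these pairs are therefore uncertain.

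Each level below is an estimated count scaled to the library, not divided by gene length, so levels of different genes are not compared. Estimated counts ran from 2.94e+06 in Lung replicate 1 to 1.21e+07 in Spleen replicate 2, and 3 counts correspond to a level of 0.255 to 1.51. The 3 Skin libraries stood apart. Transcripts named as Gm10800-related took 26.4% to 54.7% of their counts and at most 9.02% elsewhere. Skin replicate 1 had keratin 5 and keratin 14 RNA (Krt5 at 4048 and Krt14 at 3818), and a summed level of 7 neutrophil markers of 970.6 against 8807 and 16590 in the other two. The Intestine libraries carried little neutrophil marker RNA, 718 to 871 summed, against 26870 to 29180 in Blood and 29280 to 39680 in BM. RNA of the sort antigen, Ly6g, was at 3.14, 0.41 and 0.346 in Intestine and at 0.221, 0.216 and 26.9 in Skin. Ly6g was at 69.3 to 237 in Blood, 290.6 to 565.5 in BM, and 7.61 to 37.2 in Spleen and Lung. Mitochondrial transcripts made up 8.24% to 23.2% of Intestine counts and at most 2.87% of other libraries. In bulk RNA, fewer cells of a type and less RNA per cell cannot be told apart. Results are therefore given with and without the Skin libraries, and the part of other cell types in them was not tested.

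Blood had the highest mean for most of these genes. By the mean of log2(level + 1), 30 of the 37 were highest in Blood, against 17.2% of all tested genes. The median log2 level of the 37 genes was 7.07, 7.06 and 6.02 in the Blood libraries. It was 5.05, 4.27 and 5.28 in BM, 5.02, 5.61 and 4.58 in Spleen, and 5.08, 5.09 and 5.53 in Lung. Every Blood library lay above all of these. The Intestine libraries were lowest among the tissues outside Skin, at 4.51, 3.98 and 4.30, and overlapped only BM replicate 2. Skin was spread over the whole range, at 1.17, 7.05 and 5.69, so no level can be given for Skin neutrophils as a group. The 7 neutrophil markers summed to at least as much in BM as in Blood, but single markers differed in both directions. S100a9 (17670 to 23160 in BM, 13210 to 15000 in Blood), Mmp9 and Ly6g were higher in BM. Csf3r (1856 to 2717 in BM, 3592 to 4014 in Blood) and Cxcr2 (1690 to 2249, 3492 to 3839) were higher in Blood. S100a8 and Retnlg overlapped. The 7 markers summed to less in Spleen (10210 to 14370), Lung (4980 to 15850) and Intestine, and their part in the medians was not tested. A summed level of 5 erythroid markers was 2535 to 8401 in Blood, 8.94 to 569 in BM, Spleen and Lung, 76.6 to 1891 in Intestine and 80.7 to 399 in Skin, and its part in the Blood differences was not tested.

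**Figure D1:**
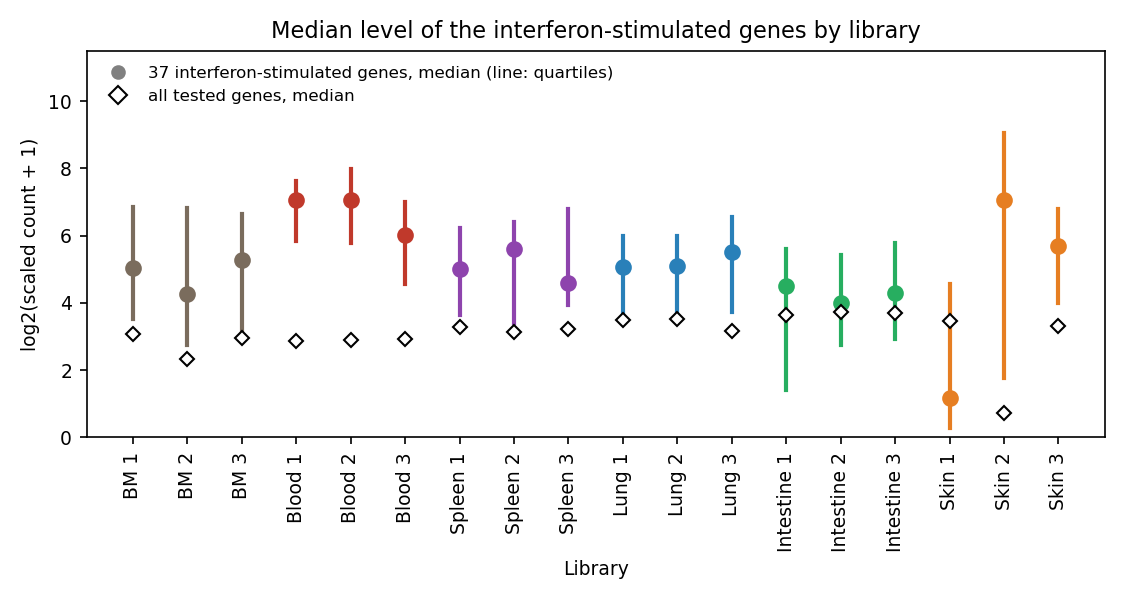
Median log2(scaled count + 1) of the 37 interferon-stimulated genes (filled circles, lines from the lower to the upper quartile) and of all tested genes (open diamonds) in each of the 18 libraries. The 3 Blood libraries sit at 6.02 to 7.07, above every BM, Spleen, Lung and Intestine library, while the Skin libraries range from 1.17 to 7.05.

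A limma F test across the 6 tissues, adjusted by Benjamini-Hochberg over every tested gene and called at 0.05, passed 13 of the 37 genes (35.1%). The same test passed 31.9% of all tested genes, so the count is near the background. Without the Skin libraries it passed 30 of 37, against 40.6% of all. The residual SD over all tested genes was 1.28 to 1.57 on the log2 scale in the Skin libraries and 0.534 to 0.952 in the others. The fit pools this spread over all tissues.

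Set against the mean of the other 5 tissues, Blood was higher in 8 of the 37 genes and lower in none by the limma test. The background was 2.43% of tested genes higher and 2.79% lower. The 8 genes were Zbp1, Oas1a, Oas1g, Oas3, Oasl2, Dtx3l, Ifi27l2a and Rtp4. The median log2 difference of all 37 was 1.86, with 34 genes above 0 and 3 below (Bst2, Mx2 and Ifi44), beside a median of -0.05 over all tested genes. Without the Skin libraries Blood was higher in 28 genes, with a background of 7.47%, and lower in none (9.67%). The median difference was then 1.85. Without both Skin and Intestine, 22 genes were higher and none lower, with 4.41% of all tested genes called in either direction. All 3 Blood libraries lay above the other 15 libraries in 7 genes, against 1.49% of tested genes, and above the other 12 outside Skin in 18 genes, against 2.3%. The calls rested on single libraries too. Without Blood replicate 1 or Blood replicate 2, none of the 37 passed, with 19 and 15 of them higher at an unadjusted p under 0.05. The share of all tested genes called fell as well, from 5.21% to 0.897% and 0.812%. Called genes of the 37 numbered 5 without Blood replicate 3, Spleen replicate 1 or Intestine replicate 3 (1.87%, 3.61% and 4.03% of all). They numbered 20, 24 and 16 without Skin replicates 1, 2 and 3 (8.39%, 13.4% and 9.67% of all).

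**Figure D2:**
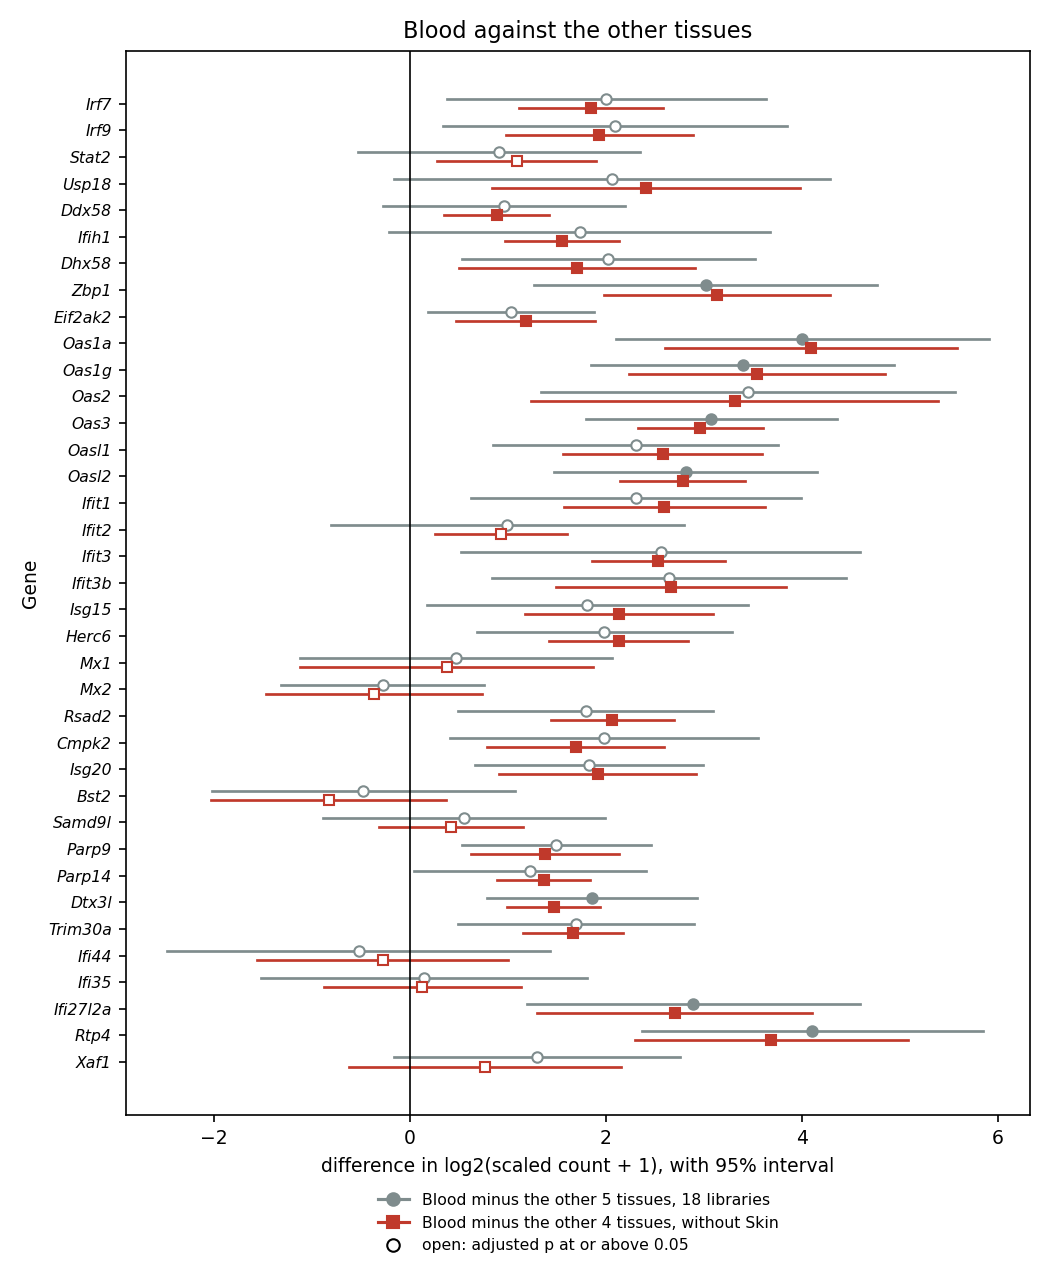
Difference in log2(scaled count + 1) between Blood and the mean of the other tissues for each gene, with its 95% interval, from all 18 libraries (grey circles) and without Skin (red squares). Filled symbols passed the limma test at an adjusted p under 0.05, as 8 genes did with Skin and 28 without, and 34 of the 37 grey circles lie above 0.

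The 2'-5' oligoadenylate synthetase family had the largest median Blood difference of the 8 role groups, 3.24 on the log2 scale. Those members that are active as enzymes make the short oligoadenylates that switch on RNase L, which cuts RNA. The 6 members had log2 differences of 2.30 to 4.01 between Blood and the other 5 tissues, and 4 of the 6 passed (background 2.43%), or 6 of 6 without Skin (7.47%).

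Oas3 had levels of 3404, 4112 and 1958 in Blood, 297, 617 and 1038 in Lung, 524, 792 and 599.5 in Spleen, 817, 860.0 and 1106 in BM, 41.1, 85.3 and 82.2 in Intestine, and 29.8, 674 and 850.4 in Skin. All 3 Blood libraries lay above the other 15. The log2 difference was 3.08 ± 0.62 (SE; adjusted p = 0.00609 by limma). Both Oas3 and Oasl2 had their highest mean log2(level + 1) in Blood and their lowest in Intestine. Oasl2 was at 2134, 2663 and 1095 in Blood, 202, 368 and 483 in Lung, 569.7, 774 and 408 in Spleen, 325, 285 and 514 in BM, 48.1, 96.5 and 86.9 in Intestine, and 24.3, 942 and 583 in Skin. Its Blood libraries also lay above all others, with a log2 difference of 2.81 ± 0.65 (adjusted p = 0.015 by limma).

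Oas1a was at 85.0, 122 and 44.0 in Blood and at 0.0571 to 13.3 in every other library but Skin replicate 3, which had 54.7. The log2 difference of Blood was 4.01 ± 0.92 (adjusted p = 0.0142 by limma). Its near copy Oas1g was at 21.0, 25.1 and 11.8 in Blood and at 15 in Skin replicate 3. In 9 of the 18 libraries Oas1g had 0 counts, and elsewhere outside Blood it reached at most 4.34. The difference was 3.40 ± 0.74 (adjusted p = 0.0112 by limma). In both genes, then, 1 Skin library overlapped Blood and no library of BM, Spleen, Lung or Intestine did.

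Oas2 was at 99.4, 77.6 and 37.2 in Blood, 44.9, 0.171 and 10.5 in BM and 39.5, 51.2 and 0.142 in Spleen, and at or below 11.6 in Lung, Intestine and Skin. BM and Spleen overlapped Blood and varied widely within each tissue. Its difference of 3.45 ± 1.02 did not pass (adjusted p = 0.0507 by limma). Oasl1, which in mice limits translation of Irf7, was at 76.3, 93.6 and 48.0 in Blood and at 147 in Skin replicate 2, and at or below 32.1 elsewhere. Its difference was 2.30 ± 0.70 (adjusted p = 0.0578 by limma).

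**Figure D3:**
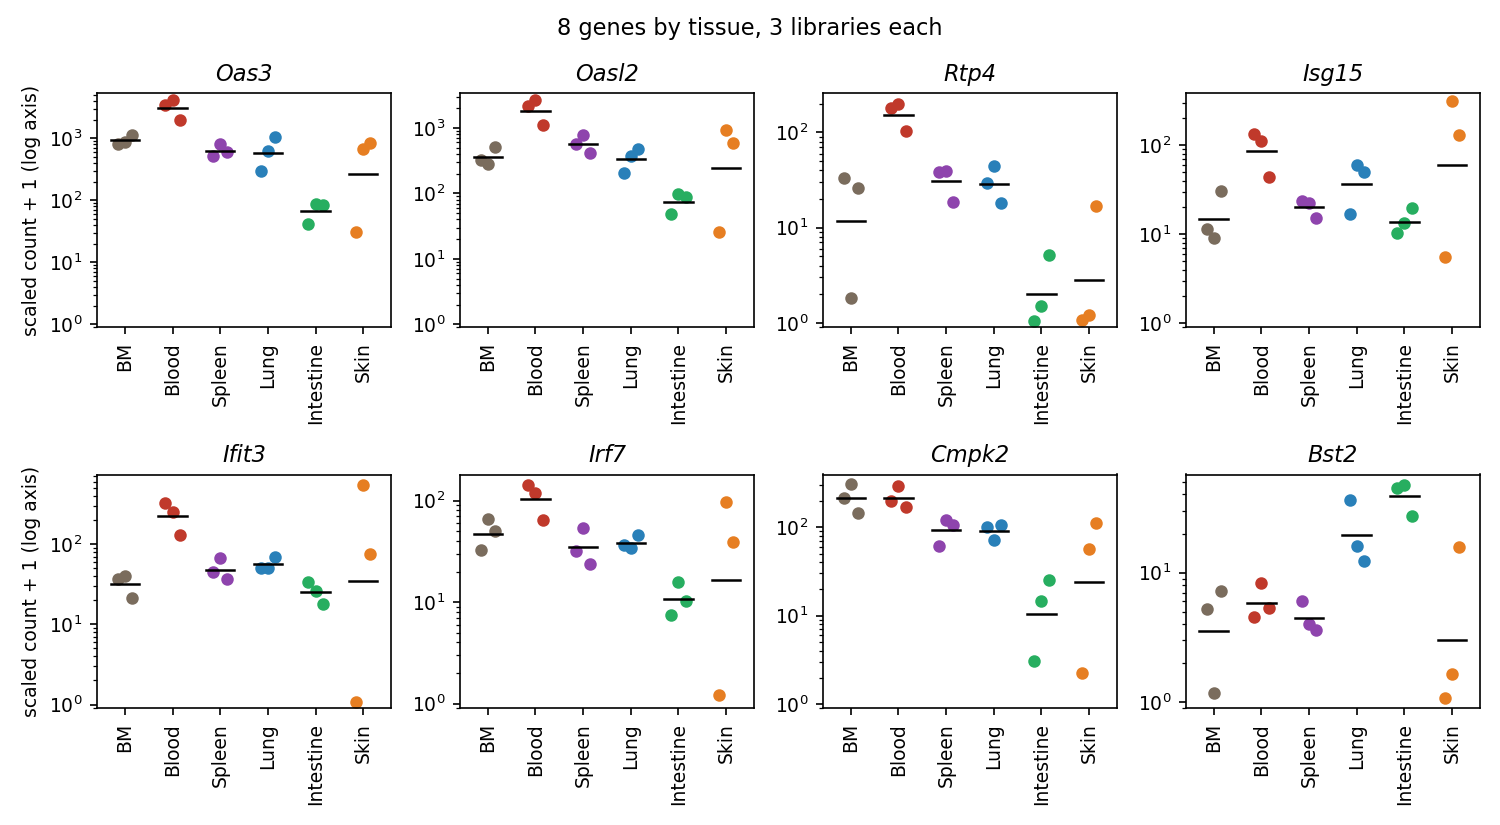
Scaled count plus 1, on a log axis, of 8 genes in the 3 libraries of each tissue (points) with the geometric mean (bars). Oas3, Oasl2 and Rtp4 are above all other libraries in the 3 Blood libraries, Isg15, Ifit3 and Irf7 are overlapped by Skin replicate 2, Cmpk2 is as high in BM as in Blood, and Bst2 is highest in Intestine.

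Transcription factors of the pathway and its feedback inhibitor had their highest mean log2(level + 1) in Blood. None of the 4 passed against the other 5 tissues with Skin included. Irf7, the factor that amplifies interferon-alpha transcription, was at 141, 117 and 64.0 in Blood, 35.2, 33.2 and 45.2 in Lung, 31.2, 52.5 and 22.9 in Spleen, 31.7, 64.3 and 48.6 in BM, 6.44, 14.8 and 9.33 in Intestine, and 0.221, 95.9 and 37.6 in Skin. Outside Skin, 1 BM library reached the lowest Blood library. The log2 difference of Blood was 2.0 ± 0.79 (adjusted p = 0.14 by limma) and 1.85 ± 0.35 without Skin (adjusted p = 0.00139 by limma). The size was close in both, and the standard error was smaller without Skin. Irf9, the DNA-binding part of the STAT complex, was at 191, 155 and 127 in Blood, and at 7.04 to 116 in BM, Spleen, Lung and Intestine, with a difference without Skin of 1.93 ± 0.46 (adjusted p = 0.00663 by limma).

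Stat2 and the protease Usp18, which strips Isg15 from proteins and dampens the receptor, showed how far 1 Skin library can reach. Stat2 was at 88.8, 99.9 and 41.4 in Blood, 37, 20.4 and 17.8 in Lung, 53.7, 62.6 and 21.2 in Spleen, 38.0, 28.9 and 62.5 in BM, 45.7, 20.5 and 27.8 in Intestine, and 22.9, 531 and 18.5 in Skin. Usp18 was at 56.3, 56.3 and 12.5 in Blood and at 0.0736, 214 and 46.6 in Skin, where the first is a library with 0 counts. Neither passed against the other 5 tissues. Without Skin, Usp18 had a difference of 2.41 ± 0.75 (adjusted p = 0.0321 by limma) and Stat2 of 1.09 ± 0.39 (adjusted p = 0.0611 by limma).

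Among the sensors of foreign or misplaced nucleic acid, Zbp1 passed. This sensor of Z-form nucleic acid, which can start necroptosis, was at 99.6, 118 and 54.7 in Blood, 32.0, 5.67 and 8.71 in Lung, 8.93, 8.62 and 20.4 in Spleen, 6.00, 8.97 and 4.59 in BM, 21.8, 4.69 and 3.19 in Intestine, and 0.368, 69.9 and 32.8 in Skin. Only Skin replicate 2 overlapped Blood. The log2 difference was 3.02 ± 0.84 (adjusted p = 0.0401 by limma). Dhx58, which encodes the RIG-I-like helicase LGP2, was at 24.6, 38.6 and 22.6 in Blood, above all other libraries, the highest of which was 15.9 in Spleen. Its difference of 2.03 ± 0.72 did not pass (adjusted p = 0.103 by limma).

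Ifih1, the long double-stranded RNA sensor MDA5, was at 194, 203 and 139 in Blood, 43.5, 78.2 and 104 in Lung, 73.9, 56.5 and 53.6 in Spleen, 84.0, 66.5 and 84.9 in BM, 25.7, 42.2 and 46.3 in Intestine, and 0.221, 532 and 50.7 in Skin. Its difference was 1.74 ± 0.94 with Skin (adjusted p = 0.288 by limma) and 1.55 ± 0.28 without (adjusted p = 0.000918 by limma). Ddx58, the sensor RIG-I, spanned 133 to 307 in Blood and 106 to 179 in BM, Spleen and Lung, which overlap, and 44.8 to 88.1 in Intestine. The kinase PKR, encoded by Eif2ak2, was at 158, 182 and 97.2 in Blood, 58.6, 53.0 and 92.9 in Lung, 73.5, 72.1 and 111 in Spleen, 115, 32.8 and 99.4 in BM, 48.4, 27.2 and 34.5 in Intestine, and 119, 89.0 and 108 in Skin. Its 3 Skin libraries lay close together, at or near the low end of Blood. Without Skin all 5 sensors were higher in Blood by limma.

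The IFIT proteins bind RNA with foreign 5′ ends and hold it from translation. Ifit3 was at 328, 252 and 128 in Blood, 49.6, 49.3 and 68.2 in Lung, 43.5, 65.9 and 35.7 in Spleen, 35.8, 38.9 and 20.1 in BM, 32.4, 24.9 and 16.9 in Intestine, and 0.0736, 539 and 73.4 in Skin. Outside Skin the lowest Blood library was above the highest other library, and the Skin libraries ran from 0 counts to the highest level of any library. The log2 difference was 2.56 ± 0.98 with Skin (adjusted p = 0.131 by limma) and 2.54 ± 0.32 without (adjusted p = 5.1e-05 by limma). Ifit3b was at 131, 134 and 71.5 in Blood and at or below 68.4 elsewhere, so its Blood libraries did not overlap the others, and its difference of 2.65 ± 0.87 did not pass (adjusted p = 0.0773 by limma).

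Ifit1 was at 167, 339.7 and 60.4 in Blood, 41.2, 35.1 and 60.5 in Lung, 26.9, 47.7 and 19.2 in Spleen, 37, 18.2 and 43.7 in BM, 8.32, 2.86 and 19.9 in Intestine, and 6.43, 571 and 72.5 in Skin. Lung replicate 3 reached the lowest Blood library. Ifit2 departed from the family, being as high in Intestine (65.6, 64.4 and 54.1) as in Blood (80.8, 53.8 and 31.5), while BM, Spleen and Lung ran from 13.7 to 27.6. Without Skin, Ifit2 was 1 of 2 genes higher in Intestine than in the other 4 tissues, the other being Bst2. Blood was higher without Skin in the other 3 members, by limma.

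Isg15, the ubiquitin-like protein joined to newly made proteins, was at 133, 109.5 and 43.1 in Blood, 15.8, 59.1 and 48.6 in Lung, 22.4, 21.7 and 14.2 in Spleen, 10.5, 8.06 and 29.5 in BM, 9.20, 12.3 and 18.7 in Intestine, and 4.49, 311 and 129 in Skin. Lung overlapped Blood, and Skin covered the whole range. The log2 difference of Blood was 1.81 ± 0.79 (adjusted p = 0.184 by limma) and 2.14 ± 0.46 without Skin (adjusted p = 0.00334 by limma). Herc6, the main ligase for Isg15 in mice, was at 271, 326 and 101 in Blood, at 528 in Skin replicate 2, and at or below 91.1 in the others, with a difference of 1.98 ± 0.63 (adjusted p = 0.067 by limma).

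The antiviral effectors split. Rsad2 encodes viperin, which makes a chain-terminating nucleotide, and was at 925, 1220.0 and 650.4 in Blood, 126, 297 and 432 in Lung, 230.1, 310.2 and 278 in Spleen, 185, 270.0 and 367 in BM, 90.5, 114 and 157 in Intestine, and 81.0, 3548 and 590.3 in Skin. Blood lay above every library but Skin replicate 2. Cmpk2, the neighbouring mitochondrial nucleotide kinase on chromosome 12, did not share that pattern. Its levels were 195, 288 and 168 in Blood and 211, 307 and 143 in BM, which overlap, 99.4, 70.0 and 104 in Lung, 60.6, 119 and 106 in Spleen, 2.08, 13.7 and 24.6 in Intestine, and 1.25, 55.2 and 109 in Skin. The BM minus Blood difference of Cmpk2 was -0.01 ± 0.98, and that of Rsad2 was -1.77 ± 0.81, neither passing; the difference between the genes was not tested.

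Isg20, an RNA exonuclease, was at 67.9, 154 and 65.0 in Blood and at or below 59.9 elsewhere, with a difference of 1.83 ± 0.56 that did not pass (adjusted p = 0.0587 by limma). Samd9l, a restriction factor, was the only member with its highest mean log2(level + 1) in BM, at 379, 209 and 232 there and 151, 132 and 124 in Blood. Mx1, whose antiviral GTPase is defective in C57BL/6 and many other inbred strains, was low, at 0.778, 12.5 and 8.70 in Blood, 2.22, 2.74 and 3.31 in Lung, 13.9, 1.56 and 8.79 in Spleen, 5.27, 10.7 and 3.72 in BM, 0.16, 1.78 and 4.95 in Intestine, and 8.46, 0.216 and 2.51 in Skin. All tissues overlapped. Mx2 had 0 counts in 13 of 18 libraries and no more than 6.14 in the rest.

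Of the 4 genes of ADP-ribosylation and ubiquitin transfer, Dtx3l passed in Blood. Dtx3l, a ubiquitin ligase that works as a pair with Parp9, was at 451, 524 and 308 in Blood, 157, 169 and 182 in Lung, 134, 215 and 186 in Spleen, 166, 161 and 218 in BM, 72.2, 119 and 100 in Intestine, and 24.1, 11.2 and 200 in Skin. All Blood libraries were above the other 15, and the log2 difference was 1.86 ± 0.52 (adjusted p = 0.0395 by limma). Trim30a, a regulator of NF-kappaB signalling, was at 961, 1013 and 572 in Blood, 236, 335 and 517 in Lung, 471, 507 and 365 in Spleen, 291, 437 and 406 in BM, 90.2, 62.6 and 83.7 in Intestine, and 31.2, 939.7 and 426 in Skin, with a difference of 1.70 ± 0.58 (adjusted p = 0.0885 by limma). Trim30a did not pass, nor did Parp9, at 1.5 ± 0.46 (adjusted p = 0.0624 by limma), or Parp14, at 1.22 ± 0.57 (adjusted p = 0.214 by limma). Without Skin all 4 genes of this group were higher in Blood.

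Rtp4, a Golgi chaperone of cell-surface receptors, had the largest Blood difference of the 37 genes with all libraries. Without Skin it was 3.69 on the log2 scale and that of Oas1a was 4.09. Rtp4 was at 180.3, 196 and 101 in Blood, 28.6, 43.7 and 17.2 in Lung, 37.4, 38.6 and 17.8 in Spleen, 32.2, 0.814 and 25 in BM, 0.0532, 0.493 and 4.11 in Intestine, and 0.0736, 0.216 and 15.8 in Skin. The Blood libraries did not overlap the others, and the log2 difference was 4.11 ± 0.84 (adjusted p = 0.00677 by limma). Ifi27l2a, a small interferon-induced membrane protein, was at 49.9, 50.7 and 15.1 in Blood, 0.131, 6.78 and 0.73 in Lung, 8.93, 6.22 and 20.4 in Spleen, 1.10, 0.286 and 3.43 in BM, 26.1, 6.43 and 8.71 in Intestine, and 0.0736, 0.216 and 15 in Skin. Spleen and Intestine overlapped the lowest Blood library. Its difference was 2.90 ± 0.82 (adjusted p = 0.0421 by limma).

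Xaf1, which binds the apoptosis inhibitor XIAP, stood out for Skin and not for Blood. It was at 15.9, 22.1 and 6.01 in Blood, 0.131, 8.59 and 1.51 in Lung, 11.9, 7.35 and 19.0 in Spleen, 12.6, 2.17 and 19.6 in BM, 11, 12.9 and 9.91 in Intestine, and 0.221, 0.216 and 0.471 in Skin. The Skin minus other 5 tissues difference was -2.81 ± 0.70 (adjusted p = 0.00826 by limma). Ifi44 was at 16, 13.4 and 12.2 in Lung and at 259 in Skin replicate 2, and its mean log2(level + 1) was 3.88 in Lung and 3.85 in Skin. Ifi35 ran from 5.66 to 35.6 outside Skin and the tissues overlapped.

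**Figure D4:**
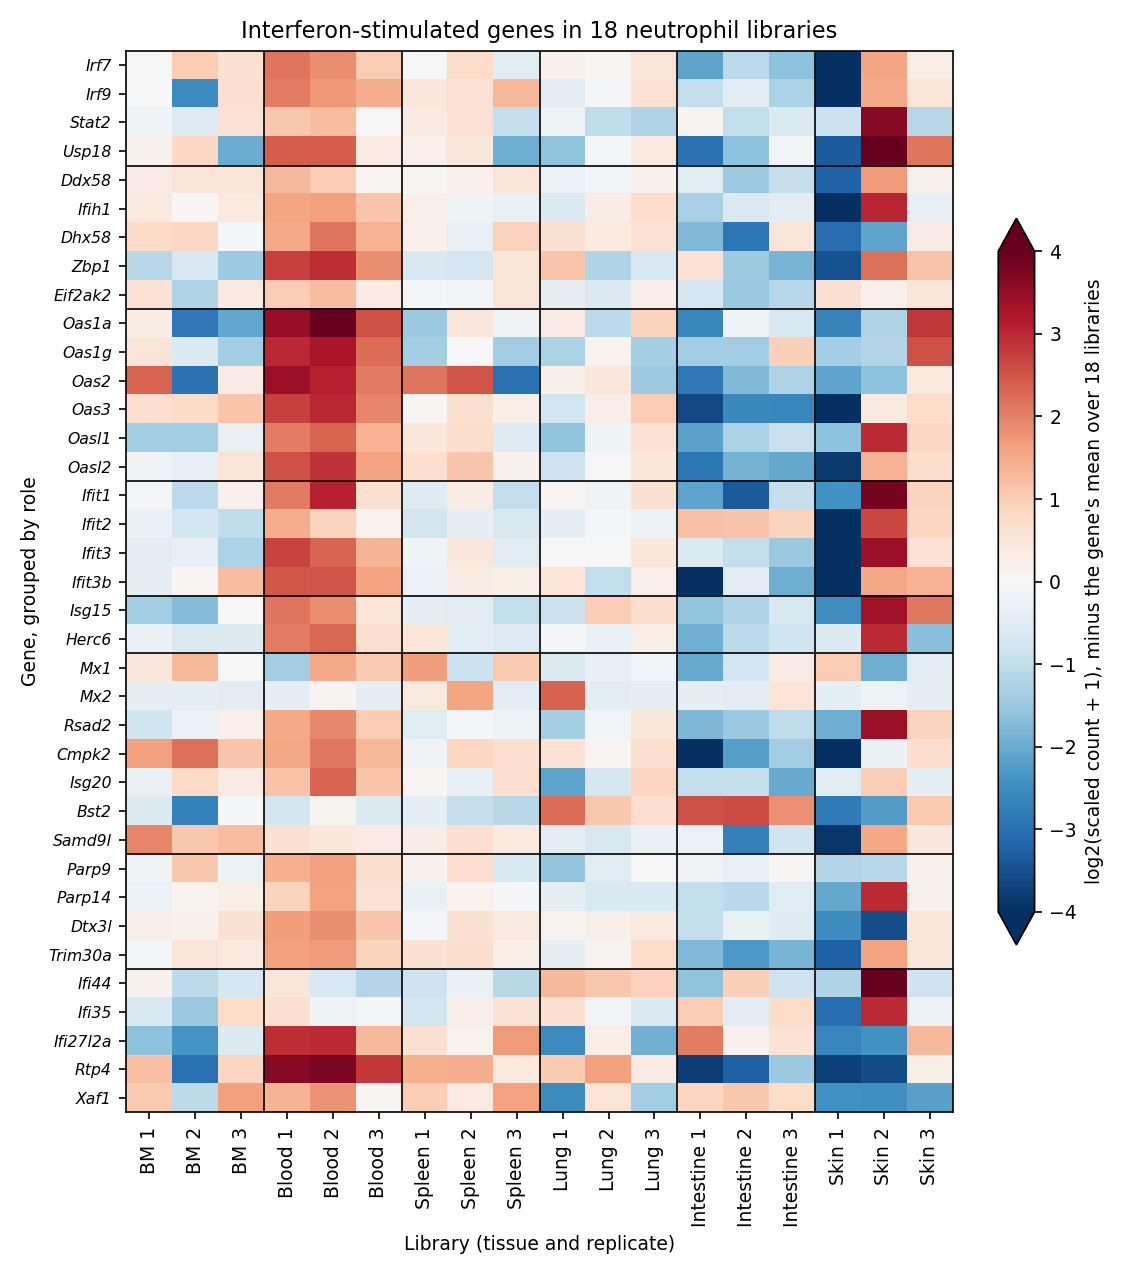
Log2(scaled count + 1) of the 37 genes, grouped by role, in the 18 libraries, each gene centred on its mean over all libraries, with colours ending at -4 and 4. The Blood columns are mostly red, the Intestine columns mostly blue, and Skin replicate 1 is mostly dark blue. In Intestine, Bst2, Ifit2, Ifi27l2a, Xaf1 and Ifi35 are on average above their mean.

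Each of the other tissues was then set directly against Blood. These comparisons share the 3 Blood libraries. The median log2 difference of the 37 genes was -1.26 for BM, -1.41 for Spleen, -1.68 for Lung, -2.86 for Intestine and -1.81 for Skin, beside -0.26 to 0.12 for all tested genes. The Skin median rested on single libraries, being -0.72 without Skin replicate 1 and -2.70 without Skin replicate 2, and was -0.89 with median-of-ratios scaling. By limma over 18 libraries none of the 37 passed in BM against Blood (background 0.105% higher and 0.099% lower) or in Spleen against Blood (0.477% higher and 0.13% lower). At an unadjusted p under 0.05, 15 were lower in BM and 9 in Spleen, and none was higher in either. Without Skin, 14 were lower in BM (background 0.851%) and 10 in Spleen (0.718%), and none was higher in either (1.3% and 1.82%).

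In Lung, 2 of the 37 were lower than in Blood with all libraries, Oas1g and Ifi27l2a, against a background of 1.02%. Without Skin 20 were lower, with a background of 5.59%. None passed without Blood replicate 1, Blood replicate 2 or Lung replicate 1, where 9, 7 and 8 were lower at an unadjusted p under 0.05. The share of all tested genes called was then 3.56%, 3.45% and 2.89%, beside 6.29% with all libraries. Called genes of the 37 numbered 10, 10 and 4 without Skin replicates 1, 2 and 3 (9.4%, 10.9% and 7.75% of all). Counting libraries alone, all 3 BM libraries lay below all 3 of Blood for 22 genes, against 9.93% of tested genes. The count was 24 for Spleen (15.7%) and 27 for Lung (14.5%).

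Intestine showed the most genes below Blood. Of the 37, 19 were lower (background 10.1%) and 1, Bst2, was higher (15.8%). The 19 were Irf7, Dhx58, Zbp1, Eif2ak2, all 6 of the oligoadenylate synthetase family, Ifit1, Ifit3b, Herc6, Rsad2, Cmpk2, Isg20, Dtx3l, Trim30a and Rtp4. The log2 difference was -6.27 ± 1.08 for Rtp4 (adjusted p = 0.000213 by limma), -5.49 ± 0.80 for Oas3 (adjusted p = 4.23e-05 by limma) and -4.62 ± 0.83 for Oasl2 (adjusted p = 0.000329 by limma). Without Skin, 28 were lower (background 17.9%) and Bst2 was higher (22.5%). All 3 Intestine libraries lay below all 3 of Blood in 28 genes, against 24.1% of tested genes.

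Against the mean of the other 5 tissues, Intestine was lower in 9 genes (background 8.18%) and higher in Bst2 (15.2%). The 9 were Eif2ak2, Oas3, Oasl2, Ifit1, Ifit3b, Cmpk2, Isg20, Trim30a and Rtp4. The largest were Oas3, at -3.51 ± 0.62 (adjusted p = 0.000235 by limma), Rtp4, at -3.41 ± 0.84 (adjusted p = 0.00455), and Cmpk2, at -3.22 ± 0.76 (adjusted p = 0.00322). Without Skin, 22 genes were lower (17.5%), and Ifit2 and Bst2 were higher (21.6%). The count of 10 in both directions was 6 without Intestine replicate 1 or 2 and 22 without Skin replicate 1. The share of all tested genes called was 17.9%, 15.6% and 29% in these refits, beside 23.4% with all libraries. The Intestine libraries also had summed fibroblast and muscle markers of 5550 to 11910, against 48.4 to 62.0 in Blood, and macrophage and monocyte markers of 920.3 to 1673, against 532 to 919.9 in Blood. The part of these cells, and of the low neutrophil marker level, in the Intestine differences was not tested.

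Bst2, or tetherin, holds budding virus at the cell surface and is also the surface antigen by which plasmacytoid dendritic cells are often sorted in mice. It was at 43.8, 46.2 and 26.5 in Intestine, 35.4, 15.1 and 11.3 in Lung, 3.53, 7.35 and 4.32 in Blood, 4.23, 0.171 and 6.23 in BM, 5.06, 3.02 and 2.60 in Spleen, and 0.0736, 0.649 and 14.8 in Skin. Lung overlapped Intestine in 1 library, and the other 14 libraries lay below Intestine. The log2 difference of Intestine from the other 5 tissues was 2.79 ± 0.74 (adjusted p = 0.00831 by limma). A list of 6 plasmacytoid dendritic cell markers was also highest in Intestine, with summed levels of 519.9 to 668.6 against 64.0 to 96.6 in Blood and 1 of 6 markers at 0 counts in each Intestine library. Most of that sum was Tcf4, at 469, 443 and 417 in Intestine, and Klk1 was also highest there. Irf8 overlapped Spleen and Lung. Siglech, a defining marker of those cells, was at 6.55, 3.12 and 3.88 in Intestine and at 20.1, 0.216 and 15.5 in Skin. Ccr9 was at 3.55, 2.35 and 7.41 in Intestine and at 8.1, 12.7 and 4.53 in Blood. Cox6a2 was at or near 0 counts in every library. The part of these cells in Bst2 was not tested.

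Skin gave few calls. Against the other 5 tissues, Dtx3l, Rtp4 and Xaf1 were lower, 3 of 37 against a background of 12.9%, and none was higher (5.9%). Without Skin replicate 1, 8 genes were higher and 2 lower, beside 22.6% of all tested genes called. The 8 were new calls, and none of Dtx3l, Rtp4 and Xaf1 changed direction when called. Without Skin replicates 2 and 3, 6 and 8 were lower and none was higher (15% and 23.8% of all called). With median-of-ratios scaling 1 was higher and 2 were lower. Against Blood, 12 were lower (background 10.4%) and none higher (5.64%). Those were Dhx58, Oas1a, Oas1g, Oas2, Oas3, Oasl2, Cmpk2, Parp9, Dtx3l, Ifi27l2a, Rtp4 and Xaf1. With the Skin and Blood libraries alone, none passed by limma and 11 were lower at an unadjusted p under 0.05. With those libraries alone, 0.937% of all tested genes were called. The count was 3 without Blood replicate 1 or 2 (8.66% and 8.7% of all). It was 4 without Skin replicate 1 (18.5%) and 23 without Skin replicate 2 (19.5%).

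The Skin libraries also differed widely from each other. Skin replicate 1 was the lowest of the 3 Skin libraries for 31 of the 37 genes, against 39% of all tested genes. It was the lowest of all 18 libraries for 20 of the 37 and had 16 of them at or below 3 counts. No share of all tested genes was worked out for the lowest of 18 libraries or for 3 counts. Skin replicate 2 was the highest of all for 14 (12.4% of all tested genes were highest there), and Blood replicate 2 for 15 (4.57%). The 14 included Rsad2 at 3548, Parp14 at 1778, Stat2 at 531 and Ifi44 at 259, yet Skin replicate 2 had 8 other genes at or below 3 counts. Its median over all tested genes was 0.72 on the log2 scale, and no other library was under 2.34. Among Blood libraries, replicate 3 was the lowest of the 3 for 34 of the 37 genes, against 39.3% of all tested genes, while its neutrophil markers summed to 26870 against 29080 and 29180. The cause of these differences between libraries was not tested.

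**Figure D5:**
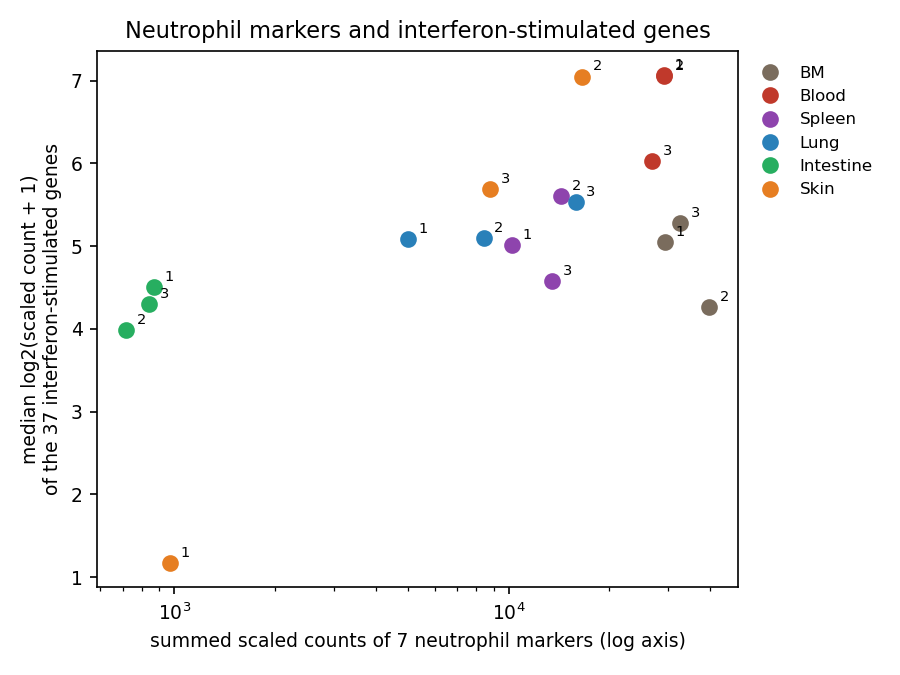
Median log2(scaled count + 1) of the 37 genes against the summed scaled counts of 7 neutrophil markers (log axis), 1 point per library, numbered by replicate and coloured by tissue. BM and Blood libraries have like marker sums, 26870 to 39680, though single markers differ in both directions. The medians are 4.27 to 5.28 in BM and 6.02 to 7.07 in Blood. Skin replicate 1 is low on both axes.

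BM, Spleen and Lung, each set against the other 5 tissues, gave no call among the 37 by limma. The backgrounds were 1.83% higher and 2.4% lower in BM, 0.538% and 0.897% in Spleen, and 3.3% and 0.124% in Lung. At an unadjusted p under 0.05, 2 were higher and 1 lower in BM, none in Spleen, and 1 higher in Lung. Without Skin, Cmpk2 and Samd9l were higher in BM and Ifit3, Bst2 and Ifi27l2a lower, with backgrounds of 6.64% and 7.53%. Spleen and Lung still gave no call, with backgrounds of 1.85% higher and 3.32% lower in Spleen and 6.46% higher and 1.25% lower in Lung. At an unadjusted p under 0.05, 2 were then higher and 2 lower in Spleen, and 2 higher and 5 lower in Lung.

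The interferons themselves were hardly detected. Of 21 interferon genes in the table, 17 had over 3 counts in no library and 3 in 1 or 2 libraries. Ifnb1 and all but 1 of the interferon-alpha genes were among the 17. Only Ifng, the type II interferon, was tested, with over 3 counts in 4 libraries and at most 5.62, in Lung replicate 1. These counts limit RNA in the sorted cells and say nothing of interferon made elsewhere.

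Receptor and signalling genes of the pathway, 20 in all, were all tested. Blood was higher in 4 of them by limma and lower in 1, beside 2.43% and 2.79% of all tested genes. Socs3, an inhibitor of cytokine receptors, had a log2 difference of 1.99 ± 0.40 from the other 5 tissues (adjusted p = 0.00639 by limma). Irf1 and Irf2, a factor and its antagonist, had 1.67 ± 0.48 and 1.57 ± 0.45. Irf8, a factor of the monocyte and dendritic lineage, was lower, at -3.12 ± 0.70 (adjusted p = 0.0128). Intestine was lower in 11 of the 20 against the other 5 tissues (background 8.18%) and higher in 1 (15.2%).

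Of 16 tested sensors and adaptors outside the 37, Blood was higher in 2, the adaptor Myd88 (1.87 ± 0.43) and the RIG-I ligase Trim25 (1.27 ± 0.32), and lower in none by limma. Of 62 tested further induced genes, 3 were higher in Blood and 1 lower, near the backgrounds of 2.43% and 2.79%. Mov10, an RNA helicase, had a difference of 2.96 ± 0.69 (adjusted p = 0.0162 by limma), Ifi47, an immunity-related GTPase, 3.51 ± 0.98 (adjusted p = 0.0404), and Trim30d, a relative of Trim30a, 1.99 ± 0.49 (adjusted p = 0.0234). Pml, which builds nuclear bodies, was lower at -2.38 ± 0.68 (adjusted p = 0.046). Without Skin, Blood was higher in 12 of the 20 signalling genes, 3 of the 16 sensors and adaptors and 23 of the 62 further genes, beside 28 of the 37 and 7.47% of all. It was lower in 1, 0 and 3 of the 3 lists, beside 9.67% of all.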

How the data were processed

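Sorted-cell RNA went through the Ovation Single Cell RNA-Seq amplification, and single-end reads of 61 nt were taken, per the labels' protocols. CASAVA, RSEM 1.3.1, limma and build mm10 are named, per the submitters' processing notes, which give no order. The deposited signal values are linear and, although named TPM, carry no division by length. Each equals (estimated count + 0.5) / (effective library size + 1), times 1000000, as read from the values. The design had assumed TPM, and its test on a log scale was kept.

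Names and positions came from GENCODE vM21. From log2(value + 1), which understates changes of low genes, a model of 6 group means was fitted to all 18 libraries with limma 3.58.1 in R 4.3.3 (12 residual degrees of freedom), with a trended prior. All adjusted p-values are Benjamini-Hochberg values over all genes tested in that fit, called under 0.05: 16157 with all libraries, 15747 without Skin and 14618 without Skin and Intestine. Intervals are at 95%. Scripts were tested on simulated data.

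The genes, the other pathway and marker lists and the tests were chosen with earlier results of these data known. Genes named with values were up to 3 of each role by F test, 8 set genes, and those called in a comparison, up to 25; for some the other tissues are given as a range. Same-numbered libraries did not deviate together, so replicate numbers were not used as pairs. In the deposited library names, Blood replicate 3 carries the letter D and replicate 3 of every other tissue the letter C. The names of Skin replicate 1 and Blood replicate 2 end in rep. Alternatives were other pseudocounts, filters, scalings, library weights, an untrended prior, a replicate block and libraries left out, of which the set without Skin and Intestine together was added after the data were seen. With counting intervals not used, depth limits only genes near 3 counts. 1 gene of the signalling list is counted but not reported by name here.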

Additional observations from a re-analysis of the deposited data

How the results depend on the processing

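No alternative turned the direction of a difference called with all libraries, and the counts below are genes of the 37 called by limma. The F test's 13 became 8 with a pseudocount of 0.1 or no filter, 21 with quantile normalization, 30 with a weight per library or without Skin, and 23 without Skin and Intestine. Blood against the other 5 tissues (8) became 13 with a pseudocount of 5 (5.82% of all tested genes called) and 4 with no filter. It became 15 with quantile normalization, 29 with weights, 28 without Skin and 22 without Skin and Intestine. Intestine against the others (10) became 21 with weights and 24 without Skin (35.6% and 39.1% of all). BM against the others (0) became 2 with weights, 5 without Skin and 3 without Skin and Intestine (15.8%, 14.2% and 4.41% of all). Spleen (0) became 1 with weights (18% of all). Lung (0) became 6 without Skin and Intestine (18.7% of all). Skin (3) became 0 with weights, with 3 at an unadjusted p under 0.05.

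Against Blood, BM (0) became 2 with a pseudocount of 5, 12 with weights, 14 without Skin, 16 without Skin and Intestine and 18 with only the 6 libraries compared. Spleen (0) became 1 with a pseudocount of 5 or quantile normalization, 19 with weights, 10 without Skin, 13 without Skin and Intestine and 23 with only 6 libraries. Lung (2) became 0 with a pseudocount of 0.1 or no filter, with 12 and 13 at an unadjusted p under 0.05, and 4 with a pseudocount of 5, 6 with quantile normalization, 25 with weights, 20 without Skin, 24 without Skin and Intestine and 26 with only 6. Skin (12) became 7 with no filter, 4 with median-of-ratios scaling, 5 with weights and 0 with only 6. The share of all tested genes called moved too: with weights it went from 31.9% to 51.4% for the F test, from 5.21% to 28.3% for Blood and from 23.4% to 35.6% for Intestine against the others, and from 18.8% to 1.52% for Skin. With weights it was 3.58% for BM, 10.7% for Spleen, 28.6% for Lung and 7.1% for Skin against Blood. For the F test and Blood against the others it was 37.1% and 8.15% with quantile normalization, and 18.8% and 2.65% with no filter. Without Skin and Intestine it was 20.2% for the F test, and 2.45% for BM, 2.64% for Spleen and 18.4% for Lung against Blood. With only 6 libraries it was 3.93% for BM, 9.22% for Spleen, 18.6% for Lung and 0.937% for Skin against Blood. With a pseudocount of 5 it was 0.439% for BM, 0.594% for Spleen and 6.05% for Lung against Blood. Quantile normalization gave 0.823% for Spleen and 7.76% for Lung against Blood. A pseudocount of 0.1 gave 30% for the F test and 6.18% for Lung against Blood. With no filter it was 3.53% for Lung and 8.88% for Skin against Blood, and with median-of-ratios scaling 13.8% for Skin against Blood. The cause was not tested.

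Leaving out 1 library at a time gave 7 to 27 for the F test. Against the other 5 tissues it gave 0 to 2 for BM, with 2 and 1 without Skin replicates 1 and 2, 0 to 24 for Blood, 0 in every case for Spleen and Lung, 6 to 22 for Intestine and 3 to 10 for Skin, where 8 of the 10, without Skin replicate 1, were higher and all calls with every library were lower. Against Blood it gave 0 to 4 for BM, with 4, 2 and 1 without Skin replicates 1, 2 and 3, 0 to 1 for Spleen, with 1 without Skin replicate 1 or 3, 0 to 10 for Lung, 14 to 28 for Intestine and 3 to 23 for Skin. Shares of all tested genes called also moved with 1 library left out, from 26.9% to 40.4% for the F test. They ran from 0.951% to 12.3% for BM, 0.812% to 13.4% for Blood, 15.6% to 30.8% for Intestine and 15% to 23.8% for Skin against the others. Against Blood they ran from 0.0687% to 0.864% for BM, 0.144% to 1.39% for Spleen and 2.89% to 10.9% for Lung. They ran from 18.8% to 34.8% for Intestine and 8.66% to 22.1% for Skin against Blood. With the replicate number as a block the counts were 14 for the F test, 7 for Blood, 11 for Intestine and 3 for Skin against the others, 20 for Intestine, 11 for Skin and 3 for Lung against Blood, and 0 in the rest. Of 45 same-numbered pairs, 1 had a correlation of deviations over 0.1 (range -0.06 to 0.106), so the numbers were not used as pairs. Whether same-numbered libraries share a mouse cannot be told from these correlations. Median-of-ratios scaling moved the median of all genes by 0.51 in Skin against the others, and quantile normalization by -0.33 in Intestine.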
